A study of Rattus norvegicus with 12 samples.

Results

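The genes described here were 32 genes of the ATF4 branch of the integrated stress response, measured in primary rat atrial fibroblasts. They were taken by gene symbol, and all 32 were present among the 22850 features of the tables. They comprise the transcription factor ATF4 and its partners, the kinases and feedback genes around it, and its targets in amino acid synthesis, amino acid transport and secretion. In the integrated stress response, kinases that sense misfolded protein, missing amino acids or other stresses phosphorylate the translation initiation factor eIF2. General translation then falls while the Atf4 mRNA is translated more, and the ATF4 protein switches on genes that make and import amino acids, together with genes that dampen the response. ATF4 is therefore controlled largely at translation, and the RNA levels given below do not measure the protein or its activity.

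The cells were fibroblasts separated by differential adhesion from the atria of Sprague-Dawley rats aged 1 to 3 days. Every library came from cells that had received angiotensin II (AngII), a hormone that activates fibroblasts, at 1 μmol/L for 48 h in medium with 2% fetal bovine serum. The AngII group received nothing else. The AngII+HNG group also received HNG, an analogue of the mitochondria-derived peptide humanin,, added 1 h before AngII to 10 μmol/L. The AngII+MOTS-c group received another mitochondria-derived peptide, MOTS-c, added at the same time to 5 μmol/L. Each group had 4 libraries. In the library names, replicates 2 and 3 of every group carry the same number, 3, with different suffixes, and replicate 1 of AngII+MOTS-c carries the number 2 where replicate 1 of the other groups carries 1. No group without AngII was analysed, so the levels could not be set against untreated cells.

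The libraries held 27960586 to 38322354 counts, of which the 32 genes made up 0.49% to 0.55%. Levels are given as CPM (a gene's count relative to the total of its library, scaled by TMM over all 12 libraries) when 1 gene is compared between libraries, and as FPKM, which divides by gene length, when different genes are compared. At this depth 3 counts correspond to 0.0787 to 0.107 CPM. Differences are log2 fold changes from the quasi-likelihood test of edgeR, and a gene was called when its p-value, adjusted by Benjamini-Hochberg over all genes tested, was below 0.05. The study describes the libraries of a group as biological replicates. Whether each came from its own cell preparation, and what the shared number of replicates 2 and 3 stands for, is not given in the sources used here, so the p-values measure only the spread between these libraries. AngII+HNG replicate 3 stood apart from the other libraries of its group, with a chi-square per gene of 14.3 to 19.4 against each of them and 5.31 to 8.89 among the other 3.

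Fibroblast markers were abundant in all groups, with summed levels of 58820 to 66150 CPM for Col1a1, Col1a2, Col3a1, Dcn, Pdgfra and Tcf21. The collagens made up most of these sums, with Col1a1 at 22850 to 26760 CPM over all libraries. Dcn stood at 97.3 to 174.5 CPM, Pdgfra at 209.7 to 259.9 CPM and Tcf21 at 119.3 to 180.7 CPM. Markers of other cells were also present, and none of the marker genes examined was at 0. The 6 macrophage markers summed to 177.6 to 214.1 CPM with AngII, 246 to 325 CPM with AngII+HNG and 174.8 to 213.9 CPM with AngII+MOTS-c. The 4 markers of smooth muscle and pericytes summed to 407.2 to 419.9 CPM with AngII, 326.1 to 353.8 CPM with AngII+HNG and 345 to 390.7 CPM with AngII+MOTS-c, so both peptide groups lay below the AngII range. The 4 endothelial markers summed to 35.93 to 42.01, 45.86 to 50.62 and 37.23 to 42.65 CPM in the same order. With AngII+HNG, 2 macrophage markers, the endothelial marker Kdr and the fibroblast marker Tcf21 rose, and the smooth muscle markers Myh11 and Cnn1 fell. Kdr stood at 7.31 to 9.88 CPM with AngII and 10.95 to 13.61 CPM with AngII+HNG, and Tcf21 at 128.6 to 140.8 and 152.2 to 180.7 CPM. Cdh5, at 11.8 to 13.9 and 14.3 to 17.0 CPM, did not overlap but was not called. Pecam1, at 9.13 to 11.2 and 10.2 to 12.1 CPM, and Vwf, at 7.01 to 9.43 and 7.65 to 9.57 CPM, overlapped and were not called. Myh11 stood at 178.9 to 185.5 CPM with AngII and 131.1 to 155 CPM with AngII+HNG, and Cnn1 at 143.9 to 151.4 and 107.5 to 115.4 CPM. The pericyte markers of the same list overlapped between these groups and were not called, with Cspg4 at 77.0 to 86.5 and 75 to 88.2 CPM and Rgs5 at 3.57 to 6.75 and 4.41 to 5.46 CPM. The macrophage markers that rose were Lyz2, at 96.5 to 114.4 CPM with AngII and 150.7 to 201.1 CPM with AngII+HNG, and Cd68, at 17.8 to 24.4 and 28.2 to 37.8 CPM. Csf1r stood at 48.1 to 63.2 and 53.7 to 73.0 CPM, Adgre1 at 3.11 to 3.89 and 2.24 to 3.23 CPM, C1qa at 4.80 to 6.02 and 3.84 to 8.19 CPM and C1qb at 3.36 to 4.28 and 2.99 to 4.60 CPM, with overlapping groups and no call. The 6 cardiomyocyte markers summed to 4632 to 6279 CPM and the 4 Schwann cell markers to 7.05 to 9.78 CPM over all libraries, with no marker of either list called. Among the cardiomyocyte markers, Myh6, at 1652 to 2546 CPM, and Nppa, at 1733 to 2372 CPM, lay above Dcn, Pdgfra and Tcf21 in every library. The markers that were called changed in the same libraries as the AngII+HNG results below, and their part in those results was not tested. With AngII+MOTS-c the smooth muscle sum was lower too, with 0 markers of that list called. In bulk RNA, fewer cells of a type and less RNA per cell cannot be told apart.

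ATF4 binds DNA as a dimer with C/EBP proteins at a composite element, written here as TGATGNAA, and related factors bind the cAMP response element TGACGTCA. Promoter windows of 300 bases, from 250 bases before to 50 bases after the gene start in RefSeq (build GRCr8), were found for 28 of the 32 genes. Both strands were searched. The table holds more than 1 window for some genes, and a gene was counted if any of its windows held the motif. The composite element was found for 7 of these 28 genes (25.0%) and for 4.16% of all 27457 genes, and the cAMP response element for 1 of 28 (3.57%) and 2.0%. Counted by window, the composite element lay in 7 of 30 windows (23.3%) and in 3.98% of all 33469 windows, and the cAMP response element in 1 of 30 (3.33%) and 1.83%. These are matches of letters in 1 short window and not measured binding sites. The genes were chosen as ATF4 pathway genes, so a higher share among them does not test control by ATF4. The stretches around the 7 composite elements are given below because this motif is the one that ATF4 dimers are known to bind, and the cAMP response element of Ppp1r15a because it was the only match to that motif among the 28. The other 21 of the 28 genes had no composite element in the window. Each is written 5′ to 3′ on the strand of the gene, with the element in capitals. TTNCATCA is the composite element read on the opposite strand.
Slc1a4, chr14:98761764-98761812, minus strand: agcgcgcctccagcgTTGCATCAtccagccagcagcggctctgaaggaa
Slc7a1, chr12:11664432-11664487, plus strand: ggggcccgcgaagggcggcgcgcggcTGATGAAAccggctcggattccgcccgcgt
Pycr1, chr10:106420910-106420969, minus strand: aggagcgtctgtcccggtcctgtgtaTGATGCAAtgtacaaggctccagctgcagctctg
Chac1, chr3:126795938-126795997, plus strand: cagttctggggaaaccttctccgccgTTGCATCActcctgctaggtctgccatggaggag
Trib3, chr3:161275534-161275580, minus strand: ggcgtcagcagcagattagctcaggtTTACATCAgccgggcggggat
Nupr1, chr1:190645923-190645982, minus strand: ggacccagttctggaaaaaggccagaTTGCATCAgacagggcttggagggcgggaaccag
Fgf21, chr1:105221486-105221545, minus strand: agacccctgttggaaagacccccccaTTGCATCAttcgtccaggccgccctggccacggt
Ppp1r15a, chr1:105139629-105139688, minus strand: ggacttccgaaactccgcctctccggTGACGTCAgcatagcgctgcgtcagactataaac

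The genes of the pathway were expressed at widely different levels in the AngII-treated fibroblast cultures. Per length, Atf4 itself stood highest, at 280.7 ± 12.7 FPKM (SD, n = 4). Nupr1, a small stress-induced chromatin cofactor, followed at 225.3 FPKM, Atf5, an ATF4-related factor, at 202.0 FPKM, and the glutamine and alanine transporter Slc38a2 at 187.1 ± 8.03 FPKM. At the other end stood the eIF2 kinases Eif2ak3 (PERK, the endoplasmic reticulum sensor) and Eif2ak4 (GCN2, the amino acid sensor), at 9.12 and 6.28 FPKM, and Atf3, an early stress-induced factor, at 3.14 ± 0.154 FPKM. Fgf21, a secreted metabolic hormone, was lowest at 0.102 FPKM. Its counts were 6, 2, 3 and 0 with AngII, 0, 7, 2 and 0 with AngII+HNG and 3, 0, 5 and 1 with AngII+MOTS-c. Fgf21 was close to the limit of detection in every library, did not pass the filter on low counts and was not tested. The other 31 genes were tested in all 3 comparisons. Ddit3, Pycr1 and Vldlr had lengths, worked back from their counts and FPKM, that varied 1.11-fold, 1.10-fold and 1.09-fold between libraries, which carries over to their FPKM but not to their CPM.

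The 32 genes together were lower in every AngII+HNG library than in any other library. Their summed level was 5477.0, 5507.3, 5390.5 and 5449.0 CPM in the AngII libraries and 5093.5, 5123.2, 5106.1 and 4873.8 CPM in the AngII+HNG libraries. With AngII+MOTS-c it was 5319.7, 5425.4, 5362.4 and 5330.3 CPM, so that replicate 2 lay within the AngII range and the other 3 below it. AngII+HNG replicate 4 was the lowest of all 12. In the median over the 31 tested genes, the AngII+HNG libraries lay 0.10, 0.06, 0.07 and 0.17 below the AngII mean on the log2 scale. The AngII+MOTS-c libraries lay 0.04, 0.02, 0.01 and 0.03 below it. These sums are a description, and they weigh the abundant genes Slc38a2, Vldlr, Atf4 and Slc7a5 most.

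**Figure D1:**
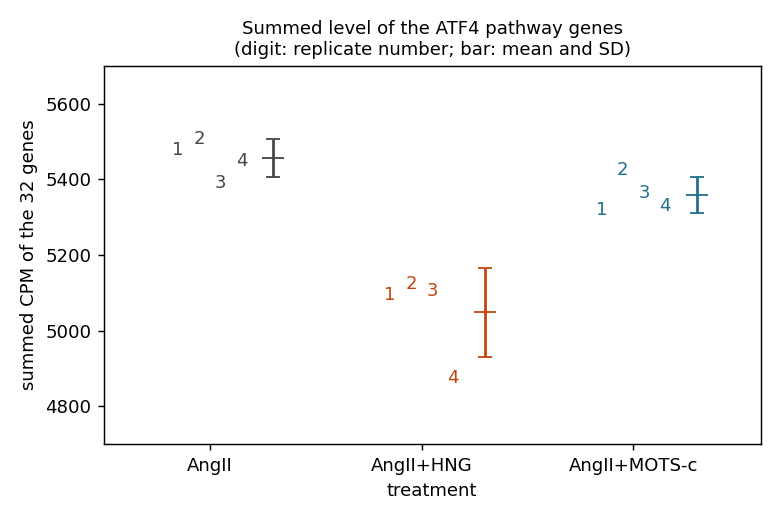
Summed level of the 32 ATF4 pathway genes (CPM, vertical axis, which does not start at 0) in each library of the 3 treatments. Digits are replicate numbers, and the bars give the mean and SD of 4 libraries. All 4 AngII+HNG libraries, from 4873.8 to 5123.2 CPM, lie below the AngII libraries, which run from 5390.5 to 5507.3 CPM.

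The comparison of AngII+HNG with AngII asks how HNG changed the transcriptome of AngII-treated fibroblasts. Among the ATF4 pathway genes, 3 of 31 fell and 0 rose: the amino acid transporters Slc1a4 and Slc38a2 and the folate enzyme Mthfd2. Over all 14524 genes tested, 5.98% were called, 2.58% lower and 3.4% higher, and 3.35% were called lower among the genes at least as abundant as the least abundant of the 31. The decreases were small. Slc1a4 fell by 14.5%, Slc38a2 fell by 15.5% and Mthfd2 fell by 14.4%, and 11 of the 31 genes changed by less than 5% in either direction. The sign was nearly uniform. The log2 fold change was below 0 in 29 of 31 genes, against 48.7% of all genes tested and 51.6% of the genes at least as abundant. All 4 AngII+HNG libraries lay below the AngII mean in 18 of the 31, a count whose share over all genes was not computed. The median log2 fold change of the 31 was -0.10, against 0.00431 over all genes tested. At an unadjusted p below 0.05, 15 of the 31 were lower and 0 higher, where 9.16% of all genes were lower and 11.1% higher. The groups did not overlap, with AngII+HNG lower, in 7 of 31 (Atf4, Chac1, Phgdh, Mthfd2, Slc1a4, Slc1a5 and Slc38a2) and in 6.55% of all genes, and in 0 of 31 with AngII+HNG higher, against 7.03%. Without AngII+HNG replicate 3, the library that stood apart, 7 of the 31 fell: Atf4, Eif4ebp1, Nupr1 and Psph joined the 3, whose log2 fold changes were then -0.23 (Slc1a4, adjusted p = 0.0073), -0.20 (Slc38a2, adjusted p = 0.00983) and -0.19 (Mthfd2, adjusted p = 0.0116). In that setting 6.36% of all genes were called, against 5.98% with all 8 libraries.

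**Figure D2:**
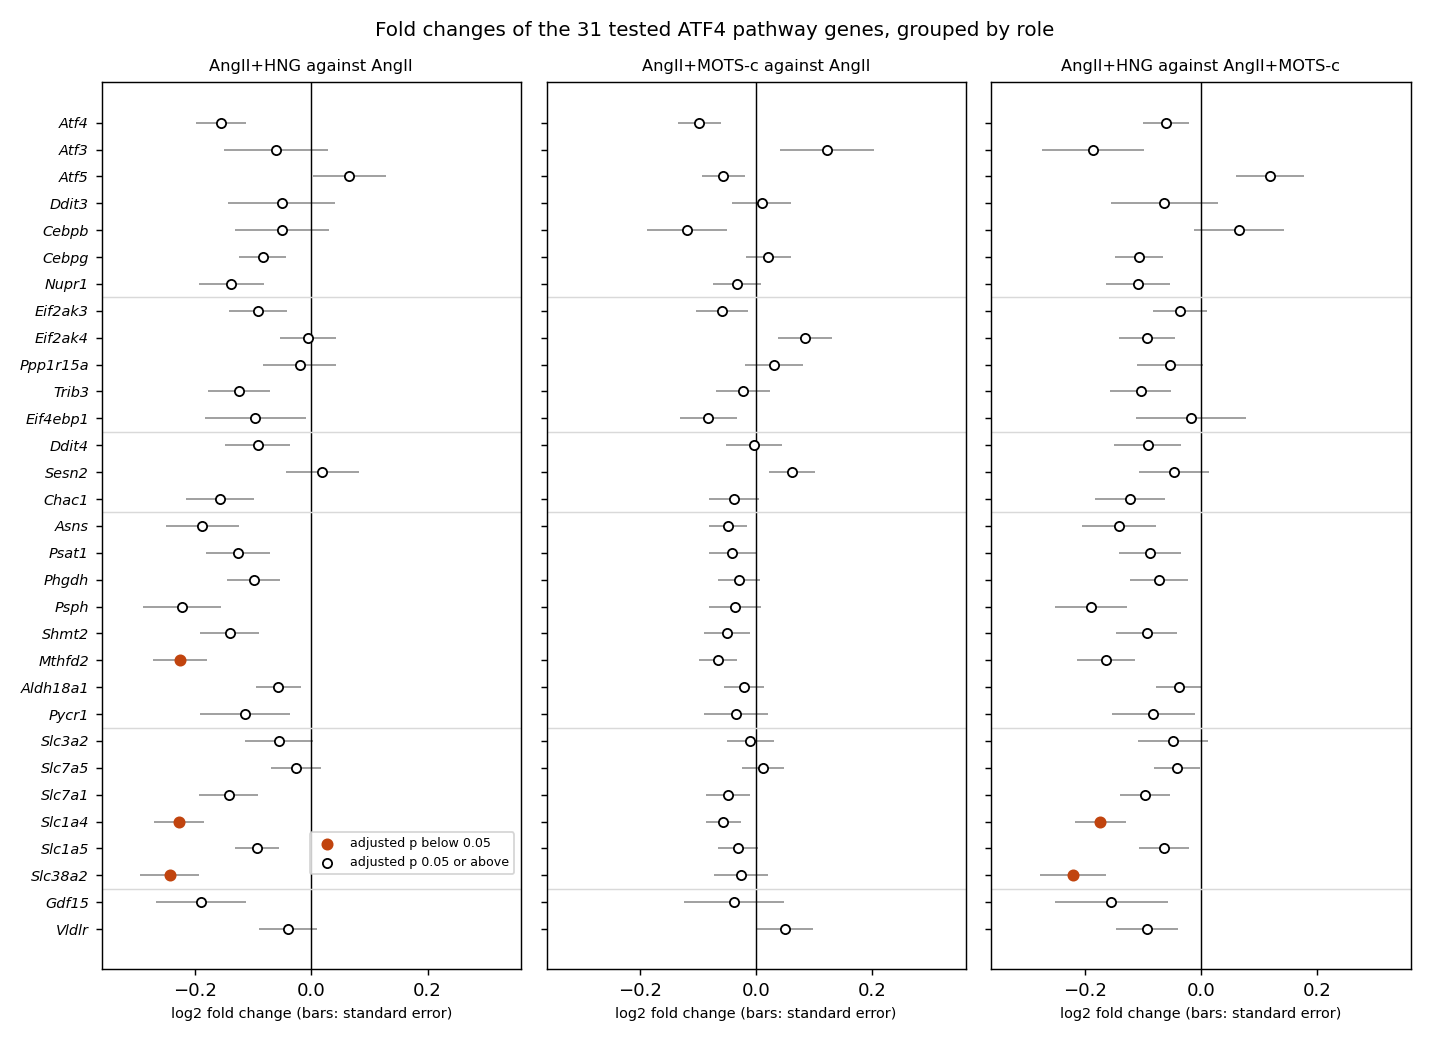
Log2 fold changes (horizontal axes) with standard errors of the 31 tested genes, in role order from transcription factors at the top to secreted factors and receptor at the bottom, for the 3 comparisons. Filled points are genes with an adjusted p below 0.05: Mthfd2, Slc1a4 and Slc38a2 in the left panel, none in the middle panel, and Slc1a4 and Slc38a2 in the right panel.

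Amino acid transport held 2 of the 3 called genes. All 6 transporter genes had a log2 fold change below 0, with a median of -0.12. Slc38a2 encodes a sodium-coupled carrier of neutral amino acids whose expression rises when amino acids run short. It stood at 927.1, 891.5, 860.4 and 955.3 CPM with AngII, at 805.2, 797.3, 692.8 and 770.9 CPM with AngII+HNG and at 830.7, 965.0, 864.9 and 906.6 CPM with AngII+MOTS-c. All 4 AngII+HNG libraries were below all 8 others, and AngII+HNG replicate 3 was the lowest. The log2 fold change was -0.24 ± 0.05 (SE, n = 4 against 4, adjusted p = 0.0129). Without AngII replicate 1 it was -0.24 with an adjusted p of 0.0523.

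Slc1a4 encodes an exchanger of alanine, serine, cysteine and threonine. Its levels were 117.6, 115.3, 111.8 and 113.9 CPM with AngII, 102.8, 99.0, 99.0 and 90.7 CPM with AngII+HNG and 112.8, 110.5, 108.5 and 109.2 CPM with AngII+MOTS-c. The AngII+HNG libraries again lay below all others, with replicate 4 lowest. The log2 fold change was -0.23 ± 0.04 (SE, n = 4 against 4, adjusted p = 0.00844), the lowest adjusted p of the 31 genes. Its promoter stretch, given above, holds the composite element in the opposite direction, starting 235 bases before the gene start.

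The remaining transporters were not called. Slc7a5, the light chain of the exchanger that brings leucine into cells, stood at 432.6, 399.0, 421.2 and 390.7 CPM with AngII, at 415.4, 405.8, 408.4 and 381.5 CPM with AngII+HNG and at 423.0, 412.4, 420.4 and 400.5 CPM with AngII+MOTS-c. These groups overlapped, and the log2 fold change under HNG was -0.03 ± 0.04 (adjusted p = 0.803). Slc3a2, the heavy chain that pairs with Slc7a5, had a log2 fold change of -0.06 ± 0.06 (adjusted p = 0.671). The arginine and lysine transporter Slc7a1 had one of -0.14 ± 0.05 (adjusted p = 0.126), and the glutamine transporter Slc1a5 one of -0.09 ± 0.04 (adjusted p = 0.190) with groups that did not overlap.

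Serine, glycine, proline and asparagine synthesis and the mitochondrial folate cycle formed the role group with the lowest median, -0.13, and all 8 of its genes had a log2 fold change below 0. Mthfd2, the mitochondrial folate dehydrogenase that passes on carbon units from serine, was the called gene among them. Its levels were 158.0, 165.8, 158.9 and 162.0 CPM with AngII, 147.2, 142.6, 126.6 and 134.4 CPM with AngII+HNG and 157.1, 159.6, 151.9 and 147.3 CPM with AngII+MOTS-c. The AngII+HNG libraries were below all AngII libraries, and the highest of them lay just below the lowest AngII+MOTS-c library. The log2 fold change was -0.23 ± 0.05 (SE, n = 4 against 4, adjusted p = 0.0128).

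Asns, the asparagine synthetase and a much used readout of ATF4, stood at 228.4, 247.3, 238.2 and 235.9 CPM with AngII, at 236.0, 216.5, 193.7 and 187.1 CPM with AngII+HNG and at 231.6, 235.8, 230.1 and 220.6 CPM with AngII+MOTS-c. AngII+HNG replicate 1 lay inside the AngII range while the other 3 lay below it, so the groups overlapped. The log2 fold change of -0.19 ± 0.06 was not called (adjusted p = 0.112). In the serine pathway, the third enzyme Psph had a log2 fold change of -0.22 ± 0.07 (adjusted p = 0.0793). Psat1, the enzyme before it, had one of -0.13 ± 0.06 (adjusted p = 0.224) and the entry enzyme Phgdh one of -0.10 ± 0.04 (adjusted p = 0.239). Shmt2, which splits serine into glycine and a folate-bound carbon, had one of -0.14 ± 0.05 (adjusted p = 0.138). The proline enzymes Aldh18a1 and Pycr1 had values of -0.06 and -0.11 (adjusted p = 0.471 and 0.458).

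**Figure D3:**
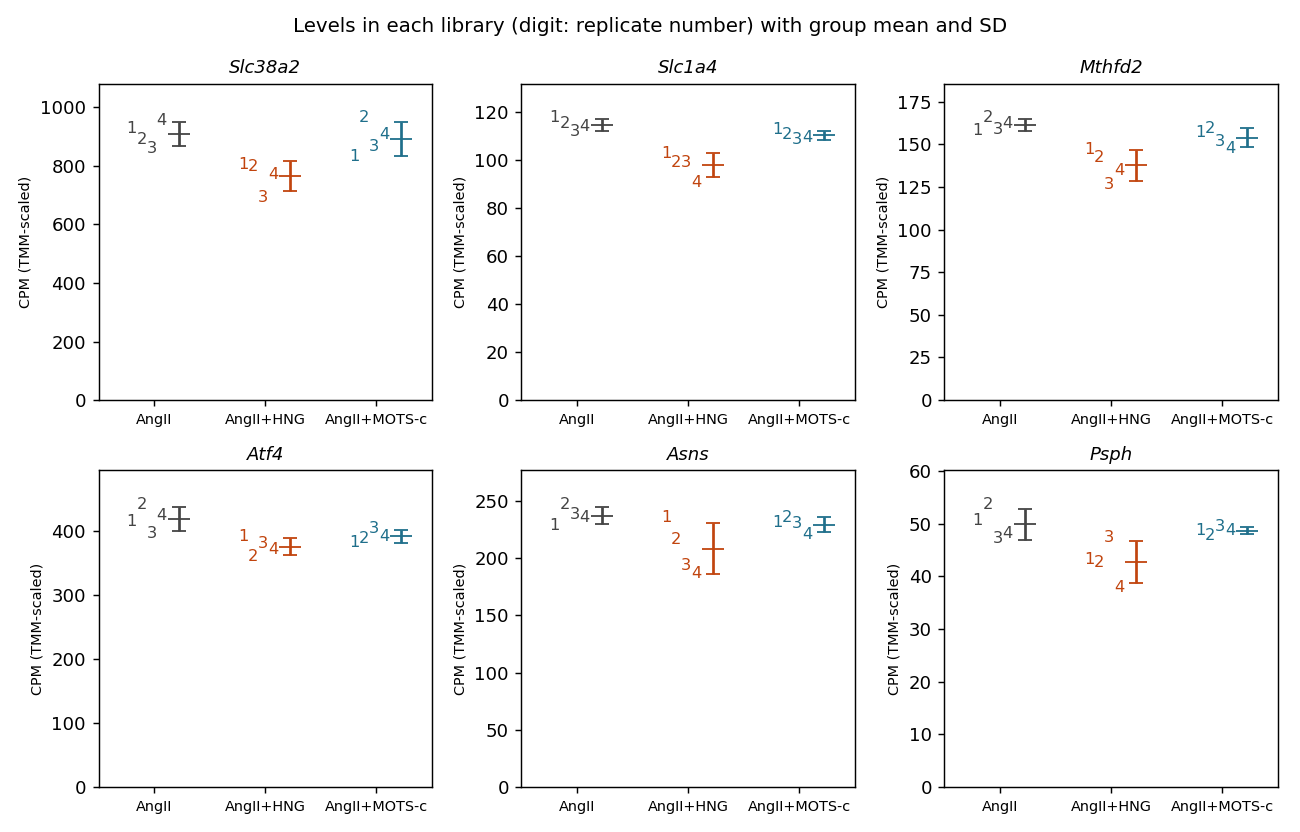
Levels (CPM, vertical axes from 0) of Slc38a2, Slc1a4, Mthfd2, Atf4, Asns and Psph in each library, by treatment. Digits are replicate numbers, and the bars give the mean and SD of 4 libraries. The 4 AngII+HNG libraries lie below the 4 AngII libraries for Slc38a2, Slc1a4, Mthfd2 and Atf4 and overlap them for Asns and Psph.

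None of the 7 transcription factors and cofactors was called, and 6 of them had a log2 fold change below 0. Atf4 stood at 413.5, 441.0, 395.1 and 423.3 CPM with AngII, at 390.7, 359.3, 379.4 and 371.2 CPM with AngII+HNG and at 380.7, 388.2, 403.6 and 390.9 CPM with AngII+MOTS-c. The AngII and AngII+HNG libraries did not overlap, though AngII+HNG replicate 1 came close to AngII replicate 3. The log2 fold change was -0.15 ± 0.04 and narrowly missed the threshold (adjusted p = 0.0524), and it was called in 8 of 19 alternative settings.

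Ddit3 encodes CHOP, the factor linked to cell death in prolonged stress. Its levels were 36.1, 41.1, 38.7 and 39.2 CPM with AngII, 34.5, 30.8, 43.2 and 40.9 CPM with AngII+HNG and 36.4, 39.0, 39.5 and 41.1 CPM with AngII+MOTS-c. The AngII+HNG libraries were split, 2 below and 1 above the whole AngII range, and the log2 fold change was -0.05 ± 0.09 (adjusted p = 0.823). Atf3 stood at 6.46, 6.51, 6.20 and 5.89 CPM with AngII, at 5.97, 6.35, 6.08 and 5.60 CPM with AngII+HNG and at 6.90, 7.04, 6.59 and 6.74 CPM with AngII+MOTS-c. It did not separate AngII+HNG from AngII (-0.06 ± 0.09, adjusted p = 0.778). Nupr1 had a log2 fold change of -0.14 (adjusted p = 0.188), and the dimer partners Cebpg and Cebpb had values of -0.08 and -0.05 (adjusted p = 0.272 and 0.798). Atf5 was one of only 2 of the 31 genes above 0, at 0.07 ± 0.06 (adjusted p = 0.631).

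The 5 kinases, feedback genes and translation regulators had log2 fold changes of -0.12 to -0.01, and none was called. Trib3, a pseudokinase that ATF4 induces and that in turn restrains it, stood at 56.9, 56.5, 51.0 and 54.6 CPM with AngII, at 47.0, 49.0, 53.3 and 51.4 CPM with AngII+HNG and at 51.7, 56.6, 51.8 and 55.4 CPM with AngII+MOTS-c. It had the lowest value of the group, -0.12 ± 0.05 (adjusted p = 0.217), with overlapping libraries. Ppp1r15a encodes GADD34, which directs a phosphatase to eIF2 and so ends the response. Its levels were 62.2, 67.9, 57.6 and 61.3 CPM with AngII, 59.6, 64.7, 65.2 and 55.8 CPM with AngII+HNG and 60.4, 62.3, 67.1 and 64.7 CPM with AngII+MOTS-c. The groups overlapped, and the log2 fold change was -0.02 ± 0.06 (adjusted p = 0.908). For Eif2ak3 it was -0.09 (adjusted p = 0.334), for Eif2ak4 -0.01 (adjusted p = 0.964) and for Eif4ebp1, the repressor of cap-dependent translation, -0.10 (adjusted p = 0.605).

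Of the 3 stress effectors, Chac1 was nearest to a change. It encodes an enzyme that degrades glutathione. It stood at 40.6, 40.4, 39.5 and 43.0 CPM with AngII, at 34.6, 39.2, 38.6 and 33.9 CPM with AngII+HNG and at 37.9, 40.0, 39.7 and 41.5 CPM with AngII+MOTS-c. All AngII+HNG libraries lay below the AngII libraries, 2 of them by less than 1 CPM, and the log2 fold change was -0.16 ± 0.06 (adjusted p = 0.15). Sesn2 encodes a leucine sensor that restrains mTORC1. Its levels were 67.9, 61.4, 63.3 and 65.8 CPM with AngII, 59.6, 64.3, 73.9 and 63.7 CPM with AngII+HNG and 65.0, 69.8, 66.5 and 68.6 CPM with AngII+MOTS-c. AngII+HNG held both the lowest and the highest of the 12 values, and the log2 fold change was 0.02 ± 0.06 (adjusted p = 0.913). It was -0.05 without AngII+HNG replicate 3. The third effector, the mTORC1 inhibitor Ddit4, had a value of -0.09 ± 0.06 (adjusted p = 0.390).

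Among the secreted factors and the receptor, Gdf15, a circulating stress cytokine, stood at 12.9, 11.6, 12.3 and 12.5 CPM with AngII, at 9.99, 11.7, 10.9 and 10.5 CPM with AngII+HNG and at 10.4, 13.4, 13.1 and 11.1 CPM with AngII+MOTS-c. A single AngII+HNG library reached into the AngII range, and the log2 fold change was -0.19 ± 0.08 (adjusted p = 0.185). The lipoprotein receptor Vldlr had a log2 fold change of -0.04 (adjusted p = 0.722).

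**Figure D4:**
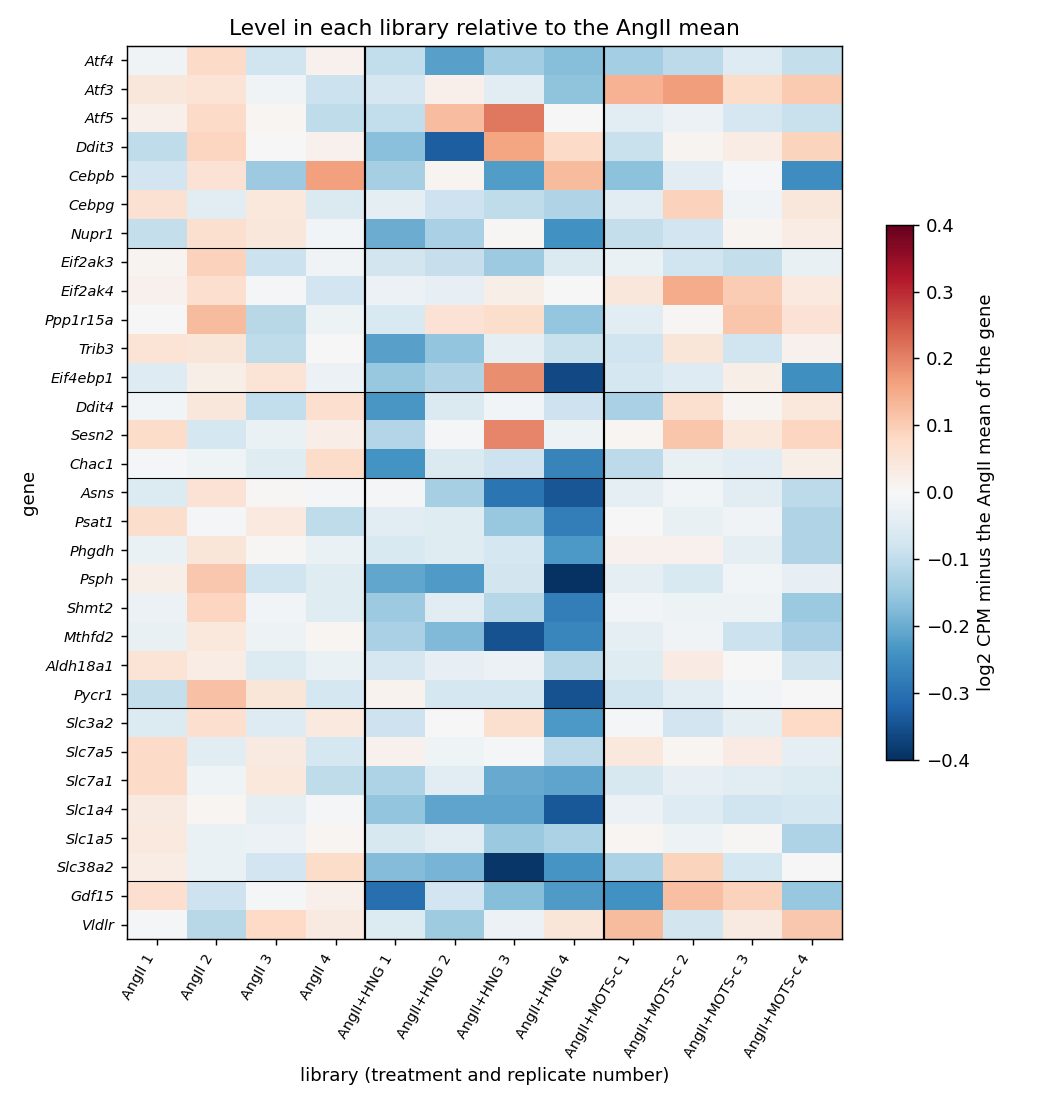
Difference of each library from the AngII mean (log2 CPM, colour scale from -0.4 to 0.4) for the 31 tested genes, in rows by role, and the 12 libraries, in columns by treatment. Blue is lower than the AngII mean: of the 31 genes 29, 26, 23 and 27 were below it in AngII+HNG replicates 1 to 4, and 24, 18, 18 and 18 in AngII+MOTS-c replicates 1 to 4.

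The promoter match and the fold change under HNG were set side by side as a description. The 6 tested genes with the composite element in the window had log2 fold changes of -0.23 (Slc1a4), -0.16 (Chac1), -0.14 (Slc7a1), -0.14 (Nupr1), -0.12 (Trib3) and -0.11 (Pycr1). Of these 6, 1 was called, where 2.58% of all genes were called lower. All 31 tested genes had a median of -0.10, with 29 of 31 below 0, whether or not they held the element. Whether genes with the element fell more than those without was not tested. Mthfd2 and Slc38a2, which were called as well, had no match in their windows, which says only that these letters are absent from those 300 bases.

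Variation between libraries of the same group was also shared by some of the genes. After each group's mean was subtracted, the log2 CPM of Asns over the 12 libraries was most like that of Mthfd2 (Pearson r = 0.852, Spearman rho = 0.944), then, by Pearson r, Pycr1 (0.711 and 0.622) and Phgdh (0.692 and 0.797). By Spearman rho, Phgdh, Psat1 (0.699) and Shmt2 (0.643) came before Pycr1. Some genes ran the opposite way, with a Pearson r of -0.628 for Sesn2, -0.599 for Ddit3 and -0.55 for Trib3. Without the 2 libraries farthest in Asns, AngII+HNG replicates 1 and 4, the Pearson r was 0.937 for Mthfd2, 0.283 for Pycr1, 0.567 for Phgdh and -0.785 for Sesn2, so the likeness to Pycr1 rested on those libraries. The 12 libraries are the same for both genes of a pair, and these values are a description.

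Other arms of the stress response were examined as fixed lists of genes outside the 32. Cytosolic tRNA synthetases, many of which are ATF4 targets, were also mostly lower: 17 of 20 had a log2 fold change below 0 under HNG, with a median of -0.06, and 1 of 20 fell, where 48.7% of all genes were below 0 and 2.58% were called lower. This was the isoleucyl-tRNA synthetase Iars1, at 264.1, 263.8, 260.6 and 257.5 CPM with AngII and 232.0, 248.8, 227.0 and 223.5 CPM with AngII+HNG. The groups did not overlap, and the log2 fold change was -0.17 ± 0.04 (adjusted p = 0.0287). The call was lost in 8 of 19 alternative settings, with adjusted p up to 0.0986. The promoter window of Iars1 also holds the composite element, which was found for 4.16% of all genes. Iars1 was the only gene outside the 32 for which the match was looked up. The match therefore says nothing about the other genes of the list or about the fall of Iars1. The stretch is shown here with the element in capitals as above.
Iars1, chr17:15193653-15193702, minus strand: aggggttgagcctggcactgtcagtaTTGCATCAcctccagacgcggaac

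Mitochondrial tRNA synthetases were mostly above 0, with 5 of 16 below it, a median of 0.04 and 0 called. Among 20 tested of 21 other ATF4 targets, 11 were below 0 and 2 fell, where 48.7% of all genes were below 0 and 2.58% were called lower. Slc7a11, the cystine importer that feeds glutathione synthesis, stood at 83.7, 81.6, 78.8 and 72.1 CPM with AngII, at 71.4, 71.1, 57.2 and 60.7 CPM with AngII+HNG and at 74.0, 82.7, 74.99 and 74.9 CPM with AngII+MOTS-c. The 2 highest AngII+HNG libraries lay within 1 CPM of the lowest AngII library, and the log2 fold change was -0.28 ± 0.07 (adjusted p = 0.0424). The call was lost in 9 of 19 alternative settings, with adjusted p up to 0.136. The glycine transporter Slc6a9 stood at 99.0, 100.1, 92.9 and 99.3 CPM with AngII and at 89.7, 87.9, 87.0 and 89.4 CPM with AngII+HNG. It fell by 0.14 on the log2 scale (SE 0.04, adjusted p = 0.0461), a call lost in 12 of 19 settings, with adjusted p up to 0.149.

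The eIF2 kinases outside the 32, the subunits of eIF2 and eIF2B and Ppp1r15b had log2 fold changes below 0 in 9 of 11 genes, with 0 called. In the ATF6 and XBP1 arm of the unfolded protein response, which raises chaperones of the endoplasmic reticulum, 16 of 20 were below 0 with a median of -0.03, and 1 gene rose, where 3.4% of all genes were called higher. This was Sdf2l1, a chaperone partner, with a log2 fold change of 0.27 ± 0.07 (adjusted p = 0.0438), a call lost in 11 of 19 settings, with adjusted p up to 0.154. Its levels were 13.3, 12.9, 12.4 and 12.2 CPM with AngII, 14.0, 15.5, 16.4 and 15.1 CPM with AngII+HNG and 12.5, 13.01, 12.0 and 11.1 CPM with AngII+MOTS-c. Mitochondrial chaperones and proteases were below 0 in 3 of 12 genes and mTORC1 regulators in 3 of 10, with 0 called in either list.

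**Figure D5:**
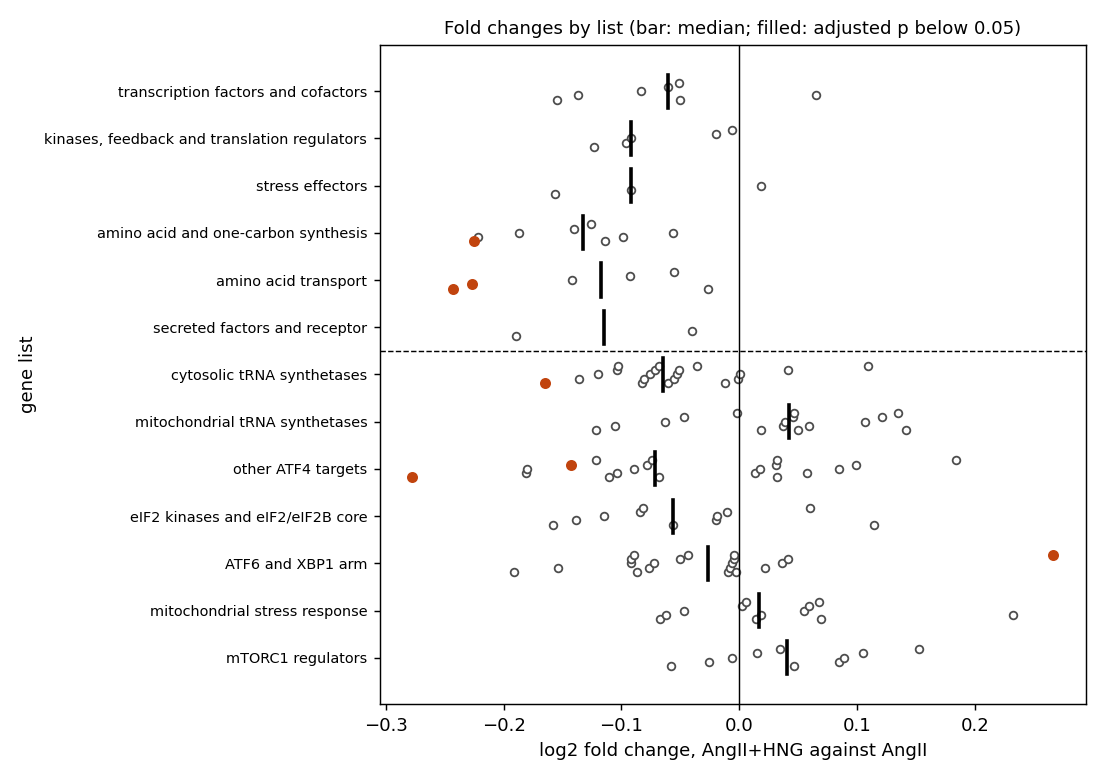
Log2 fold changes of AngII+HNG against AngII (horizontal axis) for each gene of the 6 role groups of the ATF4 pathway (above the dashed line) and of 7 further lists (below it). Vertical bars are medians and filled points are genes with an adjusted p below 0.05. Medians run from -0.13 for amino acid synthesis to 0.04 for mitochondrial tRNA synthetases.

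The comparison of AngII+MOTS-c with AngII asks the same of MOTS-c. None of the 31 genes was called by edgeR (lowest adjusted p = 0.924), and DESeq2 called 0 of them as well. Over all 14488 genes tested, 1 was called, or 0.0069%. At an unadjusted p below 0.05, 1 of the 31 was lower and 0 were higher, against 2.61% and 2.44% of all genes. That gene was Atf4, with a log2 fold change of -0.10 ± 0.04 and all 4 AngII+MOTS-c libraries below the AngII mean (edgeR, adjusted p = 0.924). The sign was below 0 in 23 of 31 genes, against 50.4% of all genes and 50.2% of the genes at least as abundant as the least abundant of the 31, with a median of -0.03 against -0.000757. Values ran from -0.12 for Cebpb to 0.12 for Atf3, and 26 of 31 genes changed by less than 5%.

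Atf3 was the gene whose AngII+MOTS-c libraries, at 6.59 to 7.04 CPM, all lay above the AngII libraries, at 5.89 to 6.51 CPM, an arrangement found in 1.75% of all genes. No gene of the 31 had the opposite arrangement, which 1.7% of all genes had. Its log2 fold change was 0.12 ± 0.08 (adjusted p = 0.925). The 3 genes that fell with HNG had values of -0.06 ± 0.03 (Slc1a4), -0.06 ± 0.03 (Mthfd2) and -0.03 ± 0.05 (Slc38a2) with MOTS-c. Slc7a11 had one of -0.04 ± 0.05. No gene was called in any of the 7 further lists.

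Both comparisons share the AngII libraries, so the peptides were compared directly. The doses, 10 μmol/L of HNG against 5 μmol/L of MOTS-c, were not matched, and the comparison is of the treatments as given. Slc1a4 and Slc38a2 were lower with HNG than with MOTS-c, 2 of 31 genes, and 0 were higher, where 4.41% of all 14448 genes tested were called, 1.77% lower and 2.64% higher. Among genes at least as abundant as the least abundant of the 31, 2.28% were called lower. The log2 difference was -0.17 ± 0.04 for Slc1a4 (SE, n = 4 against 4, adjusted p = 0.0423) and -0.22 ± 0.06 for Slc38a2 (adjusted p = 0.0474). For both genes all 4 AngII+HNG libraries lay below all 4 AngII+MOTS-c libraries. The calls were lost in 12 of 19 alternative settings for Slc1a4 and in 11 of 19 for Slc38a2, and the omission of any single library of the 8 removed at least 1 of the 2. Without AngII+HNG replicate 3, Slc38a2 had a log2 difference of -0.18 and was not called (adjusted p = 0.0648), while Slc1a4 and Psph were.

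Mthfd2 was not called between the peptides, at -0.16 ± 0.05 (adjusted p = 0.0894), nor were Psph at -0.19 ± 0.06 (adjusted p = 0.111), Atf4 at -0.06 ± 0.04 (adjusted p = 0.436) or Slc7a11 at -0.24 ± 0.07 (adjusted p = 0.0819). A difference of the 2 treatments in Mthfd2 was therefore not shown, although it was called in one comparison with AngII and not in the other. The sign was below 0 in 29 of 31 genes, against 49.4% of all genes and 52.7% of the genes at least as abundant, with a median of -0.09. Groups did not overlap, with HNG lower, in 6 of 31 genes (Atf3, Eif2ak4, Psph, Mthfd2, Slc1a4 and Slc38a2) and in 6.07% of all genes, and with HNG higher in 0 of 31 and 6.44%. Outside the 32, the glutamyl-prolyl-tRNA synthetase Eprs was lower with HNG than with MOTS-c (-0.15 ± 0.04, adjusted p = 0.0328) and Sdf2l1 was higher (0.33 ± 0.08, adjusted p = 0.0310). Eprs stood at 768.0, 767.9, 743.3 and 733.8 CPM with AngII+HNG and at 831.2, 834.4, 837.5 and 831.8 CPM with AngII+MOTS-c. These calls were lost in 11 of 19 settings for Eprs, with adjusted p up to 0.128, and in 9 of 19 for Sdf2l1, with adjusted p up to 0.123.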

How the data were processed

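RNA of 12 libraries, 4 per treatment, was sequenced after mRNA library preparation. The authors deposited a table of raw read counts (whole numbers, not normalized). The authors deposited FPKM values as a second table covering the same libraries, in which counts are divided by gene length and depth. The submitters' processing notes name HISAT2, Picard 1.41 and SAMtools 0.1.18. The counting tool, use of strand, annotation and build are not given in the sources used here, so overlapping genes and their antisense partners could not be told apart, and reads shared between a gene and near-identical copies may have been divided in an unknown way. Groups came from the sample titles, doses from the methods of the paper.

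The test was edgeR 4.0.16 in R 4.3.3 (filterByExpr, TMM, glmQLFit, glmQLFTest, Benjamini-Hochberg over all genes tested, threshold 0.05), each comparison on its own 8 libraries. Standard errors were derived from the F statistic, and log2 CPM used a prior count of 2. DESeq2 1.42.0, limma 3.58.1 on log2 of FPKM plus 1 or plus 0.1, other filters and scalings, blocks by the number in the title or in the library name, the sum of replicates 2 and 3, which share a library-name number, and the omission of libraries were alternatives. The procedure was tested on simulated counts.

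The genes, the lists and the tests were chosen with earlier results of these data known. Library values are given for each called gene of the 32, for called genes of the other lists in the groups compared, and for 12 genes set by name (Atf4, Ddit3, Atf3, Trib3, Asns, Sesn2, Chac1, Slc7a5, Slc7a11, Fgf21, Gdf15 and Ppp1r15a). Cars, Eprs, Gars and Kars were matched by these older symbols, Mars2 was not found by symbol and Cbs was too low to test. The 4 promoters of Atf3, Aldh18a1, Slc1a5 and Eif4ebp1 were not in the RefSeq table used here.

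The replicate numbers are shared by the groups. The correlation of the deviations of same-numbered libraries averaged 0.0133 for HNG with AngII, 0.054 for MOTS-c with AngII and 0.111 for HNG with MOTS-c. It was above 0.1 for the libraries numbered 4 in all 3 comparisons (0.136, 0.119 and 0.212) and for those numbered 2 between the peptides (0.159), but not for every number in any comparison, so the tests had no block.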

Additional observations from a re-analysis of the deposited data

Results flagged for a closer look

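Phgdh stood apart in AngII+HNG replicate 4, at 205.2 CPM, where the other 3 libraries of the group held 229.1 to 232.8 CPM (Dixon's ratio 0.875, taken on log2 CPM). Shmt2 stood apart in AngII+MOTS-c replicate 4, at 172.5 CPM against 188.4 to 189.8 CPM (Dixon's ratio 0.921, also on log2 CPM). These were 2 of 93 groups of 4 libraries. Chance alone flags about 1 in 20 groups.

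The effects of HNG and MOTS-c differed by the direct test for Slc1a4 (log2 difference -0.17, adjusted p = 0.0423), Slc38a2 (-0.22, adjusted p = 0.0474), Eprs (-0.15, adjusted p = 0.0328) and Sdf2l1 (0.33, adjusted p = 0.0310), all by edgeR with Benjamini-Hochberg adjustment. Of 19 alternative settings, the call was lost in 12 for Slc1a4, 11 for Slc38a2, 11 for Eprs and 9 for Sdf2l1.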

How the results depend on the processing

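Of the 31 genes, 3 were called between AngII+HNG and AngII (5.98% of all genes), 6 with DESeq2 (6.61%), 5 with all 12 libraries in one fit (7.05%) and 1 (Slc1a4) without replicate 4 of both groups (3.73%), a setting added after seeing the data. Leaving out 1 library gave 2 to 7, the highest without AngII+HNG replicate 3 (Atf4, Eif4ebp1, Nupr1 and Psph added; 6.36% of all genes) and 5 without AngII+HNG replicate 1 (5.69%). Slc1a4 passed in 19 of 19 alternatives, Mthfd2 in 18 and Slc38a2 in 17, with adjusted p up to 0.0413, 0.068 and 0.0628. The median of the 31 genes stayed between -0.14 and -0.08. Between the peptides 2 genes were called (4.41% of all genes), 1 without the filter on low counts (3.32%) and 0 with replicates 2 and 3 summed (2.96%), with limma on FPKM plus 1 (3.02%) or plus 0.1 (3.08%) or without replicate 4 of both groups (2.61%). Leaving out 1 library gave 0 to 2. With the replicate block set by sample titles there were 4, 0 and 3 calls for HNG, MOTS-c and the peptides (7.65%, 0.0138% and 7.3% of all genes), and with the replicate block set by library names 6, 0 and 1 (7.66%, 0.0069% and 3.36%). Same-numbered libraries were not shown to be pairs, though those numbered 4 correlated at 0.119 to 0.212. With MOTS-c 0 genes were called in all alternatives. The sign turned for Sesn2 with HNG when replicates 2 and 3 were summed (-0.0246) and ranged from -0.0465 to 0.0606 over omitted libraries, for Ppp1r15a it turned without replicate 4 of both groups (0.0167; -0.0575 to 0.024 over omitted libraries) and for Ddit3 over omitted libraries (-0.131 to 0.0331). With MOTS-c it turned for Slc38a2 (0.017) and Slc7a11 (0.00332) under the block by library names and for Slc38a2 over omitted libraries (-0.066 to 0.00605). The cause was not tested. Calls over all genes ranged from 431 to 1192 for HNG (869 in the analysis above), 0 to 4 for MOTS-c and 322 to 1054 between the peptides (637).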
